A study of Mus musculus with 8 samples.

Results

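Ly86, Ccr2, F13a1, Klf4, Mpeg1, Ctss, Fcgr1, Ms4a6c, Cx3cr1 and Lyz2 are genes that mouse monocytes and their precursors use, and they were taken by symbol from the deposited expression table, where all 10 were found among 23293 mouse genes. RNA was sequenced from c-Kit-positive marrow cells, mostly blood stem and progenitor cells, which were selected from individual mice with magnetic beads that carry antibody to Cd117. There were 8 libraries, 2 for each of 4 genotypes. Smc3 del Flt3-ITD mice carried Mx1-cre, 1 deleted Smc3 allele and the Flt3 internal tandem duplication. Their genotype label reads Smc3 fl/del Flt3-ITD and their titles call Smc3 heterozygous. Flt3-ITD mice carried Mx1-cre and the duplication, Smc3 del/+ mice carried Mx1-cre and 1 deleted Smc3 allele, and control mice were Smc3 fl/+ without Mx1-cre. All mice had been given PIpC 4 weeks earlier, which switches on the interferon-driven Mx1-cre recombinase and is itself an interferon inducer, and their age, sex and strain are not stated in the labels. Only the controls lacked Mx1-cre, so every comparison with control also compares carriers of the recombinase with mice that lack it. Smc3 encodes a ring subunit of cohesin, and Flt3-ITD keeps the Flt3 receptor kinase active.

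Monocytes arise in the marrow from granulocyte-monocyte progenitors under the factors PU.1 and Irf8, which act upstream of Klf4, and they leave for the blood by way of the chemokine receptor Ccr2. Classical monocytes carry much Ly6C and Ccr2, and patrolling monocytes carry much Cx3cr1. Lysozyme, cathepsin S and the pore-forming protein of Mpeg1 act in the digestion of engulfed microbes, and many of these genes are also used by macrophages, dendritic cells and, for Lyz2, neutrophils.

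Promoters of all 10 genes were matched in RefSeq on GRCm38.p6, as 300 bases from 250 before to 50 after each annotated start, with 11 starts because F13a1 has 2. The letters GAAANNGAA, the spacing of the interferon response element to which Irf8 and its relatives bind, were present on either strand in 4 of the 10 genes, against 8.56% of 32851 mouse promoters. Of those 4, Ly86, Ccr2 and Ms4a6c were higher with Flt3-ITD on average, as was Irf8 itself, and Ctss did not pass. F13a1, Klf4, Mpeg1, Cx3cr1 and Lyz2 lack the match and were higher too. A link between the match and these changes was not tested. The 4 promoters with a match are printed with it in capitals, and all lie on the forward strand of the genome.
Ly86, chr13:37345095-37345394: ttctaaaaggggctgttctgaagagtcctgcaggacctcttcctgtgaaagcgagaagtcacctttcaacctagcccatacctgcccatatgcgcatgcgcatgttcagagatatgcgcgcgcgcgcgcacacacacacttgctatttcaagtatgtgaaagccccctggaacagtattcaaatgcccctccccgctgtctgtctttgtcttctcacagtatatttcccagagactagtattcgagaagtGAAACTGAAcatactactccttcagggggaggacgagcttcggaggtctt
Ccr2, chr9:124101933-124102232: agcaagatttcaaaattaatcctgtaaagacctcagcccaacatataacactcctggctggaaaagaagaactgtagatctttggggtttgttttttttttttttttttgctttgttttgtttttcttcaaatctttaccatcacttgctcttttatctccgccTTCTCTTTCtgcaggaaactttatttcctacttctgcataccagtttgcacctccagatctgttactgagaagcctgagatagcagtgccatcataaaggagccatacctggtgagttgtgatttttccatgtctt
Ctss, chr3:95526536-95526835: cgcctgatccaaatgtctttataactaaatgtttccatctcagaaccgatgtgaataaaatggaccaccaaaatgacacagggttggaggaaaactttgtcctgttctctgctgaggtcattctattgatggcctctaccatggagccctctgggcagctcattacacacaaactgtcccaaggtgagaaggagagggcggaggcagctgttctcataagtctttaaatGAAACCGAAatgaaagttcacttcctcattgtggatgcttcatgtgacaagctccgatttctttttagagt
Ms4a6c, chr19:11469118-11469417: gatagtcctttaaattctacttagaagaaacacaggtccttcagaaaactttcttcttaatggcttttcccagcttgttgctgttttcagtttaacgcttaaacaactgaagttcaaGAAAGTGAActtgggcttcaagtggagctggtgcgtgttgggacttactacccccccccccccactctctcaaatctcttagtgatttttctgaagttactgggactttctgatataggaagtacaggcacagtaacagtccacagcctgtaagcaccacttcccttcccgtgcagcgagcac
The match began at the annotated start in Ly86, 21 bases before it in Ctss and 133 before it in Ms4a6c, and it was on the other strand, 86 bases before the start, in Ccr2. GAGGAA, the core to which PU.1 binds, was present in 3 of the 10 genes (F13a1, Ctss and Fcgr1) against 28.3% of promoters, and it overlapped no GAAANNGAA match. TTGCNNAA, a core for C/EBP factors, was present in 0 of the 10 against 10.8% of promoters. These are matches of letters in a fixed window, and binding was not measured.

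The libraries were compared before the genes. Values are FPKM, which divide the fragments of a gene by its transcript length and by the size of the library. The depth in reads is unknown, and between 10490 and 10843 genes per library reached 1 FPKM. Replicates correlated at r = 0.932 in Smc3 del Flt3-ITD, against 0.976 in Flt3-ITD, 0.981 in Smc3 del/+ and 0.975 in control, across 10854 genes that are not independent, so the Smc3 del Flt3-ITD libraries stood apart from each other more than any other pair. Smc3 averaged 119 ± 23.3 FPKM in Smc3 del Flt3-ITD, 92.3 ± 3.35 in Flt3-ITD, 134 ± 1.86 in libraries labelled Smc3 del/+ and 115.4 ± 4.64 in control (SD, n = 2 each), so that the libraries labelled with the deletion had no lower Smc3 level than the others. Directions for Smc3 therefore refer to libraries as labelled. Xist, the RNA that coats an inactive X chromosome, was at 500 to 596 FPKM in Smc3 del Flt3-ITD and 617 to 657 in control, and at 0.140 to 0.326 in Flt3-ITD and 0.425 to 0.936 in Smc3 del/+. Flt3-ITD or Smc3 del/+ against control, Smc3 del Flt3-ITD against Flt3-ITD, and the interaction cannot be told apart from this Xist difference. The average effect of Flt3-ITD over both Smc3 genotypes is balanced for Xist but not for Mx1-cre. All libraries with the duplication carry the recombinase, and of those without the duplication only the Smc3 del/+ libraries do. Kit, the gene of the selection marker, was at 38.7 ± 1.86 FPKM in Smc3 del Flt3-ITD, 52.9 ± 6.71 in Flt3-ITD, 49.2 ± 0.469 in Smc3 del/+ and 57.5 ± 3.74 in control.

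Levels of the monocyte genes spanned a wide range. Lyz2 averaged 2953 FPKM over the 8 libraries, the gene of rank 20 among 23293, and F13a1 (94.9), Ms4a6c (72.5), Ly86 (69.0) and Mpeg1 (67.4) came next. Ccr2 averaged 30.0 FPKM, Ctss 22.7, Klf4 7.97, Cx3cr1 3.83 and Fcgr1 0.180. Of the 10 genes, 9 had a mean of at least 1 FPKM and were tested, and Fcgr1 was not. Smc3 del Flt3-ITD replicate 1 held the highest value of 9 of the 10 genes, all but Lyz2, and a Smc3 del/+ library held the lowest value of 7.

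**Figure D1:**
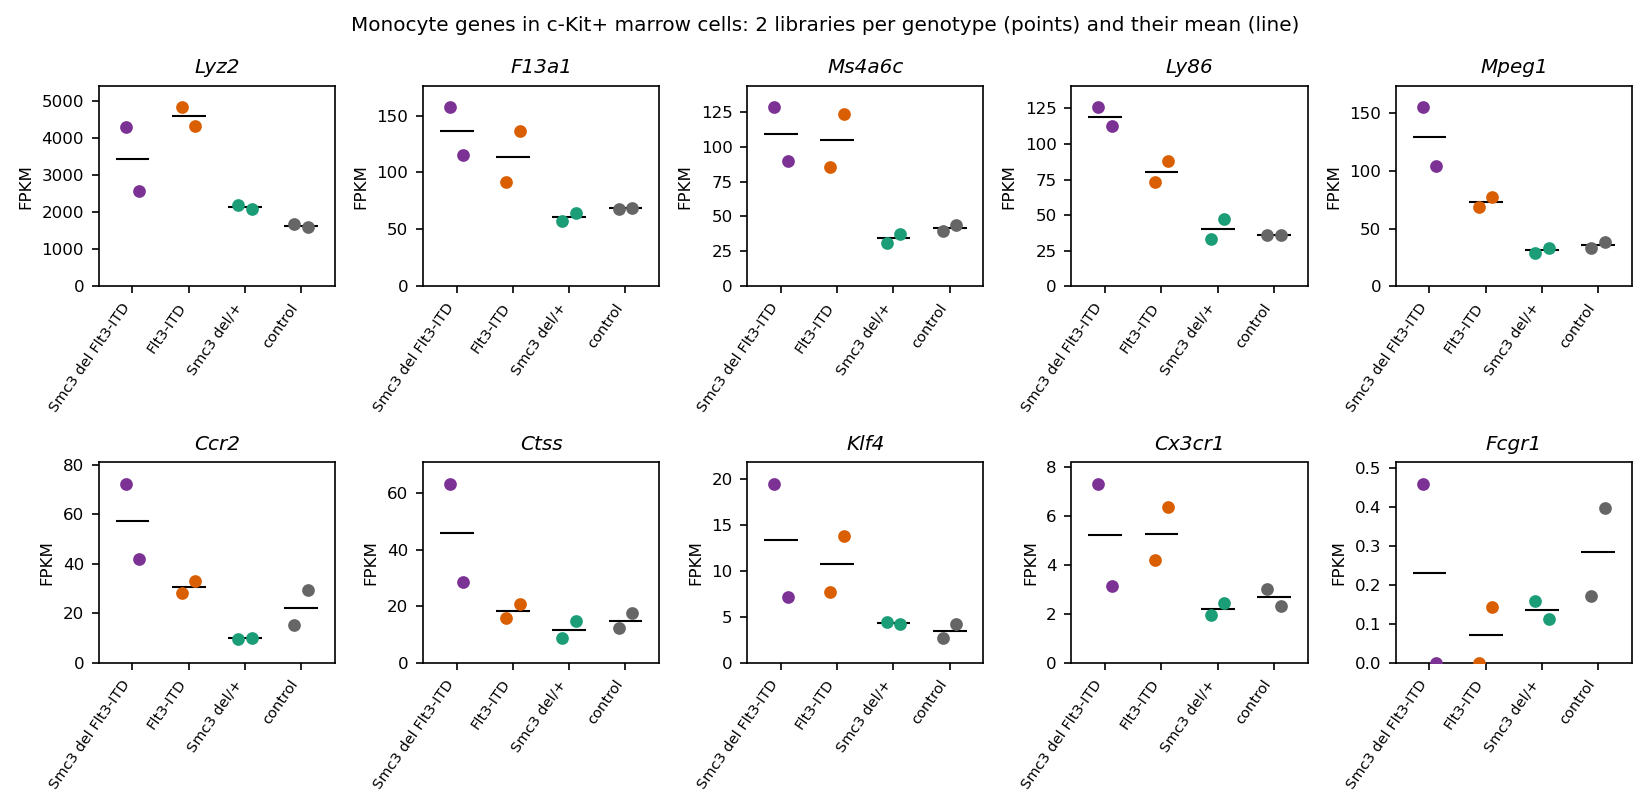
FPKM (vertical axis, a separate scale from 0 for each gene) of the 10 monocyte genes in each of the 8 libraries, as points, with the mean of the 2 libraries per genotype as a line. Points of the Smc3 del Flt3-ITD and Flt3-ITD groups lie above those of the Smc3 del/+ and control groups for 7 genes, with overlaps for Ccr2 and Ctss, and Fcgr1 stays under 0.5 FPKM in every library.

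The main question was whether Flt3-ITD moved the monocyte genes, averaged over both Smc3 genotypes. Of the 9 tested genes, 8 were higher in the 4 libraries with Flt3-ITD than in the 4 without, and 0 were lower (limma on log2(FPKM + 1), Benjamini-Hochberg adjusted p under 0.05 over all 10854 tested genes). Across all tested genes 10.9% were higher and 12.8% lower by the same rule. The monocyte genes and the lists below were chosen with earlier results of these data known. Their counts therefore describe chosen sets and are no independent test against all genes. The median log2 fold change of the 9 was 1.32, against -0.01 over all tested genes. For 7 of the 9, all 4 libraries with the duplication lay above all 4 without it, which held for 12.1% of all tested genes. In bulk RNA, more cells of a type and more RNA per cell cannot be told apart. Without control replicate 1 or Flt3-ITD replicate 2, 4 of the 9 passed (Ly86, Mpeg1, Ms4a6c and F13a1), where 4.77% and 6.1% of all tested genes were higher.

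Ly86 encodes MD-1, the secreted partner of the Toll-like receptor relative Cd180. Its level was 126 and 113 FPKM in Smc3 del Flt3-ITD and 73.0 and 87.8 in Flt3-ITD, against 33.0 and 47.1 in Smc3 del/+ and 35.9 and 36.2 in control. The groups with and without Flt3-ITD did not overlap, and the controls were within 1 FPKM of each other. On average Ly86 was 2.63 times higher with the duplication (log2 fold change 1.35 ± 0.147 (SE), limma adjusted p = 0.0015).

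Ms4a6c, a multi-pass membrane protein of the Ms4a family, was at 128 and 90.1 FPKM in Smc3 del Flt3-ITD and 85.3 and 124 in Flt3-ITD, against 31.3 and 37.6 in Smc3 del/+ and 39.6 and 43.9 in control. The 2 groups with Flt3-ITD overlapped each other and both stood clear of the other 2. Its log2 fold change was 1.45 ± 0.166 (limma adjusted p = 0.0015). Reads of this gene could be shared in part with Ms4a6b, whose reading frame has 86.3% identical bases over the aligned part, but Ms4a6b did not exceed 11.7 FPKM in any library.

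Mpeg1 encodes perforin-2, which makes pores in engulfed bacteria. It was at 155 and 105 FPKM in Smc3 del Flt3-ITD and 68.7 and 77.3 in Flt3-ITD, against 28.5 and 33.5 in Smc3 del/+ and 33.1 and 38.6 in control. Each Smc3 del Flt3-ITD library was above each Flt3-ITD library, and these above all the others. The log2 fold change for Flt3-ITD was 1.51 ± 0.219 (limma adjusted p = 0.0031), the largest among the 9 genes.

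F13a1 encodes the catalytic subunit of coagulation factor XIII, a transglutaminase that crosslinks fibrin. It was at 157 and 116 FPKM in Smc3 del Flt3-ITD and 91.8 and 136 in Flt3-ITD, against 57.1 and 64.3 in Smc3 del/+ and 68.2 and 68.6 in control. All libraries with Flt3-ITD were above all those without, by a log2 fold change of 0.92 ± 0.165 (limma adjusted p = 0.0068). F13a1 and Ly86 are neighbours on chromosome 13 with 0 protein-coding genes between them in RefSeq.

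Lyz2, the lysozyme of macrophages and granulocytes, was at 4315 and 2579 FPKM in Smc3 del Flt3-ITD and 4837 and 4348 in Flt3-ITD, against 2188 and 2089 in Smc3 del/+ and 1680 and 1590 in control. The groups with and without Flt3-ITD did not overlap, although the lower Smc3 del Flt3-ITD library came close to the Smc3 del/+ libraries. Lyz2 made up 0.766% and 0.384% of mouse FPKM in Smc3 del Flt3-ITD and 0.715% and 0.739% in Flt3-ITD, against 0.414% and 0.376% in Smc3 del/+ and 0.273% and 0.294% in control, so that as a share the groups did overlap. Its log2 fold change was 1.06 ± 0.239 (limma adjusted p = 0.0152), and the call was lost without Flt3-ITD replicate 2 (adjusted p = 0.0529), control replicate 1 (0.0591) or control replicate 2 (0.0596).

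Lyz2 and Lyz1 are near-identical copies, with 95.1% identical bases over 447 aligned bases of their reading frames and identical runs of up to 118 bases, and the labels do not state how the authors' counting divided shared reads. Lyz1 was at 96.7 and 47.7 FPKM in Smc3 del Flt3-ITD and 102 and 78.9 in Flt3-ITD, against 48.1 and 43.3 in Smc3 del/+ and 34.6 and 35.4 in control. The ratio of Lyz2 to Lyz1 stayed between 44.6 and 55.1 in the 8 libraries. Lyz1 was higher with Flt3-ITD (log2 fold change 0.95 ± 0.239, limma adjusted p = 0.0226), but its values are uncertain for the reason given.

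**Figure D2:**
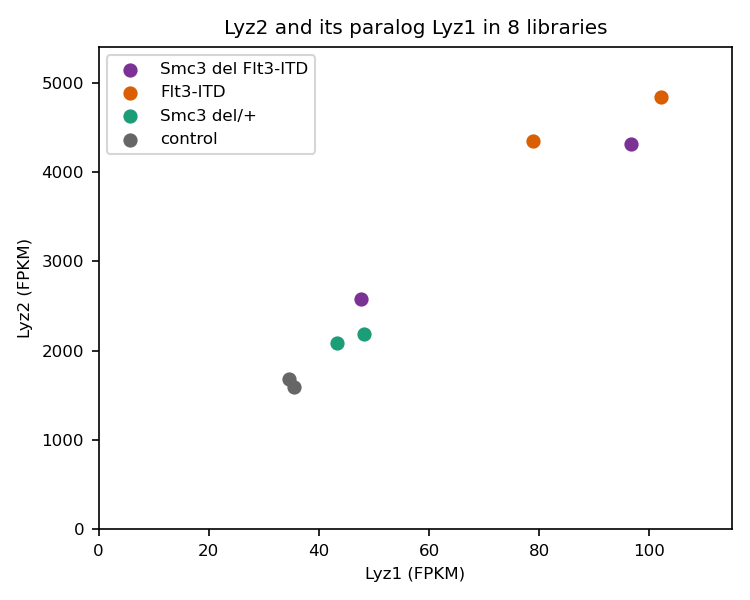
FPKM of Lyz2 (vertical axis) against FPKM of its copy Lyz1 (horizontal axis) in the 8 libraries, 1 point each, coloured by genotype. The points rise together, with a ratio between 44.6 and 55.1, and Smc3 del Flt3-ITD replicate 2 lies apart from the other 3 libraries with Flt3-ITD, nearer to the Smc3 del/+ libraries.

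Klf4, a zinc finger transcription factor needed for monocyte formation in the mouse, was at 19.5 and 7.16 FPKM in Smc3 del Flt3-ITD and 7.68 and 13.8 in Flt3-ITD, against 4.48 and 4.27 in Smc3 del/+ and 2.67 and 4.19 in control. All libraries with Flt3-ITD exceeded all those without, but those with it spread widely. The log2 fold change was 1.32 ± 0.297 (limma adjusted p = 0.0152), and the call was lost without control replicate 1 (0.0551) or Flt3-ITD replicate 2 (0.0503).

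Ccr2, the receptor through which Ccl2 and its relatives draw monocytes out of the marrow, was at 72.4 and 42.1 FPKM in Smc3 del Flt3-ITD and 28.3 and 33.1 in Flt3-ITD, against 9.67 and 10.1 in Smc3 del/+ and 15.3 and 29.3 in control. The higher control library lay between the 2 Flt3-ITD libraries, so the groups overlapped. Its average log2 fold change was 1.44 ± 0.386 (limma adjusted p = 0.0284), a call that was lost when Smc3 del Flt3-ITD replicate 1, Flt3-ITD replicate 2, either Smc3 del/+ library or control replicate 1 was left out (adjusted p 0.0506 to 0.0861).

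Cx3cr1, the receptor for the membrane-bound chemokine fractalkine, was at 7.30 and 3.11 FPKM in Smc3 del Flt3-ITD and 4.17 and 6.34 in Flt3-ITD, against 1.94 and 2.45 in Smc3 del/+ and 3.02 and 2.31 in control. The lowest library with Flt3-ITD was only just above the highest control. The log2 fold change was 0.82 ± 0.241 (limma adjusted p = 0.0402), and this call held without Smc3 del Flt3-ITD replicate 2 and was lost when any of the other 7 libraries was left out (adjusted p 0.0577 to 0.117).

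Ctss encodes cathepsin S, a lysosomal protease that trims the invariant chain Cd74 on MHC class II molecules. It was at 63.3 and 28.5 FPKM in Smc3 del Flt3-ITD and 15.7 and 20.9 in Flt3-ITD, against 8.61 and 14.7 in Smc3 del/+ and 12.1 and 17.7 in control. Smc3 del Flt3-ITD libraries were the highest, and the Flt3-ITD libraries overlapped the controls. Ctss was the tested gene that did not pass for Flt3-ITD (log2 fold change 1.06 ± 0.373, limma adjusted p = 0.0717), and without Smc3 del Flt3-ITD replicate 1 the value was 0.68.

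Fcgr1, the high-affinity receptor for IgG that marks maturing monocytes and macrophages, was listed at 0.459 and 0 FPKM in Smc3 del Flt3-ITD, 0 and 0.142 in Flt3-ITD, 0.157 and 0.111 in Smc3 del/+ and 0.170 and 0.396 in control. All 8 values were below 0.5 FPKM and the groups overlapped. No fold change is given, since a gene at this level was listed at 0 in 2 libraries of the duplication's groups.

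Set against the same controls one genotype at a time, 6 of the 9 genes were higher in Smc3 del Flt3-ITD, against 5.41% of all tested genes (6.38% lower). The log2 fold changes were 1.80 ± 0.203 for Mpeg1 (limma adjusted p = 0.0042), 1.70 ± 0.186 for Ly86 (0.0040), 1.35 ± 0.231 for Ms4a6c (0.0134), 1.34 ± 0.331 for Ccr2 (0.0406), 1.03 ± 0.269 for Lyz2 (0.0485) and 0.97 ± 0.218 for F13a1 (0.0313). Klf4 (1.57, adjusted p = 0.0621), Ctss (1.48, 0.0538) and Cx3cr1 (0.68, 0.256) did not pass, although for all 9 genes both Smc3 del Flt3-ITD libraries lay above both controls, which held for 25.8% of all tested genes. The count that passed depended on single libraries, as did the share of all tested genes called higher. It was 0 of the 9 without control replicate 1 (0.231% of all tested genes), 1 without control replicate 2 (0.203%) and 3 without either Smc3 del/+ library (1.97% and 2%). It was 9 without Smc3 del Flt3-ITD replicate 2 (15.6%), and 4 or 5 without each of the other 3 (3.58% to 12.8%).

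In Flt3-ITD against control, 4 of the 9 genes were higher, against 8.51% of all tested genes (9.5% lower). Lyz2 led with a log2 fold change of 1.49 ± 0.269 (limma adjusted p = 0.0117), followed by Ms4a6c (1.28 ± 0.231, 0.0116), Ly86 (1.13 ± 0.186, 0.0084) and Mpeg1 (1.01 ± 0.203, 0.0169). Both Flt3-ITD libraries were above both controls for Klf4, F13a1 and Cx3cr1 also, with adjusted p between 0.0629 and 0.180, and not for Ccr2 and Ctss, so that 7 of the 9 genes separated in this way, against 34.3% of all tested genes. The count of genes that passed was 0 without either control library, where 0.471% and 0.629% of all tested genes were higher. It was 2 without Flt3-ITD replicate 1 (1.18%), 1 without Flt3-ITD replicate 2 (3.22%) and 7 without either or both Smc3 del Flt3-ITD libraries (19.1% to 19.2%). Both comparisons share the control libraries, so their likeness is not independent evidence.

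Within the libraries of low Xist, where both groups carry Mx1-cre, Flt3-ITD exceeded Smc3 del/+ for 6 of the 9 genes, against 3.81% of all tested genes, in a comparison chosen after the data were seen. The 2 groups also differ in the Smc3 deletion, so Flt3-ITD and the deletion cannot be told apart here. Ccr2, for example, averaged 9.88 FPKM in Smc3 del/+ and 22.3 in control. The log2 fold changes of the 6 were 1.55 for Ms4a6c, 1.54 for Ccr2, 1.21 for Mpeg1, 1.10 for Lyz2, 1.01 for Ly86 and 0.87 for F13a1 (limma adjusted p 0.0113 to 0.0490). The counterpart within the libraries of high Xist is Smc3 del Flt3-ITD against control, given above, where the groups also differ in both alleles and in Mx1-cre.

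**Figure D3:**
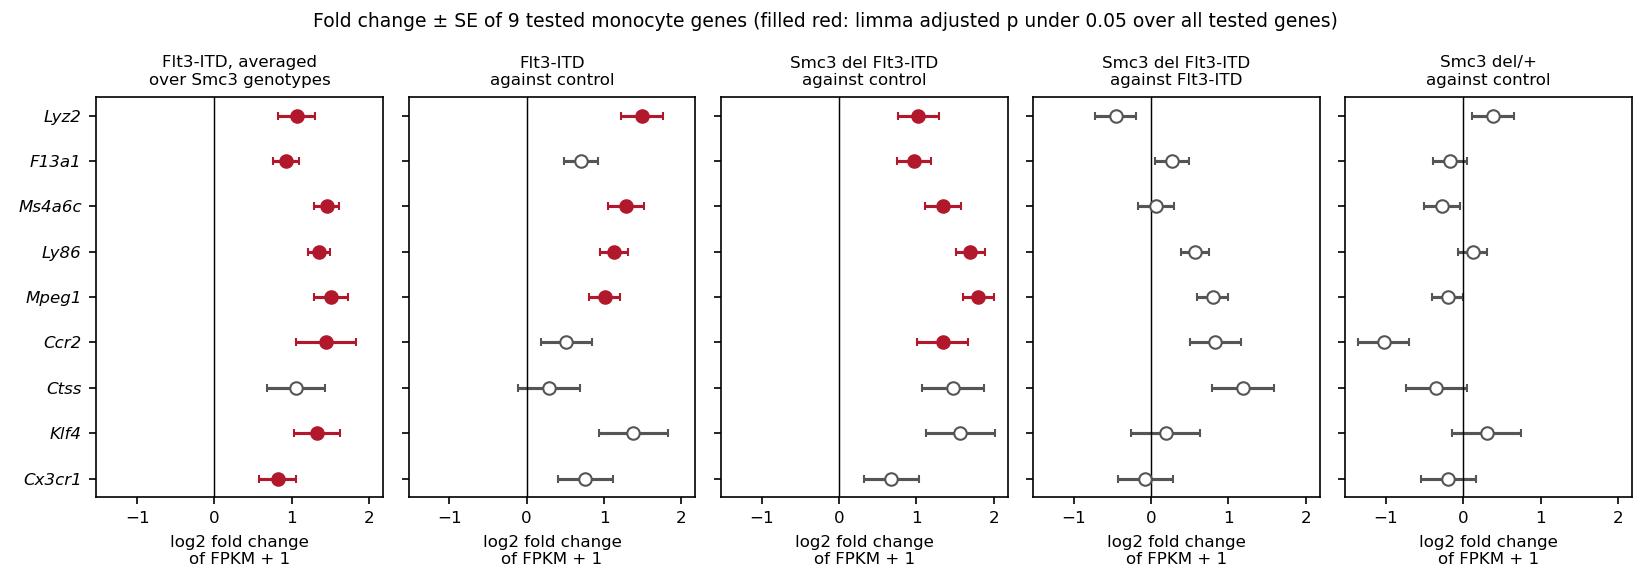
Log2 fold change of FPKM + 1 with its standard error (horizontal axis) for the 9 tested monocyte genes in 5 comparisons, with filled red points where the limma adjusted p over all tested genes is under 0.05. For Flt3-ITD averaged over Smc3 genotypes 8 points are filled, for Flt3-ITD against control 4 and for Smc3 del Flt3-ITD against control 6, while Smc3 del Flt3-ITD against Flt3-ITD and Smc3 del/+ against control have none.

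Loss of 1 Smc3 allele was examined with and without Flt3-ITD. In Smc3 del Flt3-ITD against Flt3-ITD, 0 of the 9 genes passed in limma, against 0.24% of all tested genes higher and 0.0461% lower, and 4 had an unadjusted p under 0.05, against 11% of all tested genes. These were Ctss (log2 fold change 1.19 ± 0.399), Ccr2 (0.83 ± 0.331), Mpeg1 (0.80 ± 0.203) and Ly86 (0.57 ± 0.186), with limma adjusted p of 0.239 to 0.427 and both Smc3 del Flt3-ITD libraries above both Flt3-ITD libraries in each, which held for 17.1% of all tested genes. Lyz2 had a value of -0.46 ± 0.269 (adjusted p = 0.530), and both of its Smc3 del Flt3-ITD libraries were below both Flt3-ITD libraries, as for 16.8% of all tested genes. Ms4a6c, F13a1, Klf4 and Cx3cr1 had values between -0.08 and 0.27 and overlapping groups. The replicates of Smc3 del Flt3-ITD differed by a median of 1.67 times over the 9 genes, all higher in replicate 1. Leaving out that library gave calls for Lyz2 (-0.83, adjusted p = 0.0102) and Mpeg1 (0.51, 0.0388) and a value of 0.63 for Ctss, in a fit that called 14.4% of all tested genes higher and 15.5% lower. Leaving out replicate 2 gave a call for Mpeg1 (1.08, 0.0242), with 0.876% of all tested genes called higher.

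Without Flt3-ITD, 0 of the 9 genes passed between Smc3 del/+ and control in limma, against 0% of all tested genes higher and 0.00921% lower, and 1 had an unadjusted p under 0.05, against 4.55% of all tested genes. That was Ccr2, with a log2 fold change of -1.03 ± 0.331 (limma adjusted p = 0.868) and both Smc3 del/+ libraries below both controls. The other 8 had values between -0.35 and 0.39. Both Smc3 del/+ libraries were below both controls for 3 of the 9 (Ccr2, F13a1 and Ms4a6c), against 23.2% of all tested genes, and above both for 2 (Klf4 and Lyz2), against 24.2%. Averaged over both Flt3 genotypes, 0 of the 9 passed for the Smc3 deletion, against 0% of all tested genes in either direction, and 1 had an unadjusted p under 0.05, against 4.84% of all tested genes (Ly86, log2 fold change 0.35 ± 0.147, limma adjusted p = 0.901).

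The test of whether the Smc3 effect differed between Flt3 genotypes called 0 of the 9 genes in limma, against 0.0184% of all tested genes in each direction, with 3 at an unadjusted p under 0.05, against 9.3% of all tested genes. The differences on the log2 scale were 1.86 ± 0.468 for Ccr2 (limma adjusted p = 0.298), 1.53 ± 0.564 for Ctss (0.465) and 0.999 ± 0.288 for Mpeg1 (0.361). Lyz2 had the opposite sign, at -0.85 ± 0.381 (0.551). Without Smc3 del Flt3-ITD replicate 1, Ccr2 (1.48), Mpeg1 (0.72) and Lyz2 (-1.22) passed, with limma adjusted p of 0.0441, 0.0427 and 0.0126, in a fit that called 9.14% of all tested genes positive and 9.8% negative. Without replicate 2 Mpeg1 passed (1.28, 0.0341), with 0.765% of all tested genes called positive.

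The 9 tested monocyte genes varied together across the libraries. Pearson's r of log2(FPKM + 1) between the 9 tested genes lay between 0.508 and 0.979 with a median of 0.865 over 36 pairs, as a description over 8 libraries that share their genotype groups. F13a1 with Ms4a6c was the closest pair, and Ctss with Lyz2 the least close. Lyz2 was also the tested gene with the lowest r to the mean of the set (0.785), while the others were between 0.911 and 0.978. Fcgr1, near 0 FPKM and not tested, had an r of 0.251 to that mean. Genes outside the set with the highest r to that mean were Hpse (0.995), the heparanase gene, Pld4 (0.993), Cd68 (0.990), Psap (0.987) and Chn2 (0.980). Cd68, a lysosomal membrane protein of monocytes and macrophages, was at 74.4 and 35.1 FPKM in Smc3 del Flt3-ITD and 34.7 and 47.8 in Flt3-ITD, against 21.5 and 21.5 in Smc3 del/+ and 20.6 and 27.1 in control. Psap, the precursor of the saposins that aid lipid breakdown in lysosomes, was at 283 and 162 FPKM in Smc3 del Flt3-ITD and 143 and 158 in Flt3-ITD, against 69.5 and 72.5 in Smc3 del/+ and 72.3 and 88.3 in control. Smc3 del Flt3-ITD replicate 1 was the highest library for both.

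Ligands, relatives and partners of these genes were tested as a list of 30, of which 21 reached 1 FPKM on average. With Flt3-ITD 12 of the 21 were higher and 0 lower, against 10.9% and 12.8% of all tested genes. Their median log2 fold change was 0.77, against -0.01 over all tested genes. Ctsh, another lysosomal cathepsin, was at 86.9 and 73.5 FPKM in Smc3 del Flt3-ITD and 74.2 and 81.2 in Flt3-ITD, against 31.4 and 30.9 in Smc3 del/+ and 30.0 and 32.2 in control, with little spread inside any group (log2 fold change 1.31 ± 0.092, limma adjusted p = 0.0006). Fcer1g, the signalling chain that Fcgr1 uses, rose by 0.92 ± 0.130 (0.0028), and Fcgr4, a receptor that uses the same chain, by 0.91 ± 0.175 (0.0085). Ly96, the relative of Ly86 that binds lipopolysaccharide for Tlr4, rose by 1.16 ± 0.171 (0.0033), and Klf6, a zinc finger factor of the Klf4 family, by 0.91 ± 0.108 (0.0016). Cd180, the receptor that the Ly86 protein joins, was at 21.4 and 6.25 FPKM in Smc3 del Flt3-ITD and 10.3 and 12.2 in Flt3-ITD, against 9.28 and 8.19 in Smc3 del/+ and 5.54 and 8.23 in control, groups that overlapped (0.52 ± 0.314, limma adjusted p = 0.260). The Ccr2 ligand genes Ccl2 and Ccl12 were listed at 0 in all 8 libraries, and the Cx3cr1 ligand gene Cx3cl1 reached at most 0.336 FPKM.

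Of 14 tested monocyte transcription factors, 7 were higher and 2 lower with Flt3-ITD, against 10.9% and 12.8% of all tested genes. Their median log2 fold change was 0.50. Irf8, which directs progenitors towards monocytes and away from neutrophils, was at 126 and 76.5 FPKM in Smc3 del Flt3-ITD and 58.7 and 89.2 in Flt3-ITD, against 26.6 and 28.4 in Smc3 del/+ and 26.4 and 29.5 in control (log2 fold change 1.57 ± 0.195, limma adjusted p = 0.0019). Its groups with and without the duplication did not overlap. Sfpi1, the table's name for the PU.1 gene, was at 191 and 109 FPKM in Smc3 del Flt3-ITD and 209 and 183 in Flt3-ITD, against 96.5 and 102 in Smc3 del/+ and 92.7 and 119 in control. It rose by 0.72 ± 0.182 (0.0234), although Smc3 del Flt3-ITD replicate 2 was below the higher control. Klf2, also a Klf4 relative and counted in both lists, rose by 1.26 ± 0.180 (0.0029), Id2 by 1.15 ± 0.166 (0.0030) and Irf5 by 1.18 ± 0.268 (0.0163). Maf, a factor of macrophage maturation, was at 1.01 and 0 FPKM in Smc3 del Flt3-ITD and 0.223 and 0.229 in Flt3-ITD, against 2.39 and 2.66 in Smc3 del/+ and 2.002 and 3.52 in control, and fell by 1.45 on the log2 scale (limma adjusted p = 0.0073).

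Among 26 other tested monocyte genes, 19 were higher and 0 lower with Flt3-ITD, against 10.9% and 12.8% of all tested genes. Their median log2 fold change was 0.98. Csf1r, the receptor for the main monocyte growth factor, was at 23.3 and 13.6 FPKM in Smc3 del Flt3-ITD and 14.0 and 21.0 in Flt3-ITD, against 6.96 and 8.59 in Smc3 del/+ and 5.92 and 10.3 in control (1.07 ± 0.224, limma adjusted p = 0.0119). Ly6c2, which encodes the Ly6C surface antigen of classical monocytes, was at 2145 and 1810 FPKM in Smc3 del Flt3-ITD and 2679 and 2822 in Flt3-ITD, against 1200 and 1357 in Smc3 del/+ and 1400 and 1339 in control (0.82 ± 0.149, 0.0072). Groups with and without Flt3-ITD did not overlap for either gene. S100a4, a calcium-binding protein of motile cells, had the largest change of the genes named from this list (2.35 ± 0.378, 0.0046), at 87.6 and 45.9 FPKM in Smc3 del Flt3-ITD and 34.04 and 36.04 in Flt3-ITD, against 4.56 and 6.76 in Smc3 del/+ and 13.1 and 12.1 in control. Csf2ra (1.02), Itgam (1.01), Cybb (1.004), Lgals3 (1.26) and Ly6c1 (0.75) rose also, with limma adjusted p of 0.0022 to 0.0070.

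Markers of other blood cells moved with the same comparison, and their part in the changes of the monocyte genes was not tested. Of all tested genes, 10.9% were higher and 12.8% lower in it. Of 12 neutrophil genes, 5 were higher and 0 lower, and their summed FPKM was 143220 to 172715 in Smc3 del Flt3-ITD and 161186 to 230159 in Flt3-ITD, against 104884 to 108986 in Smc3 del/+ and 79822 to 87087 in control. S100a9, S100a8 and Ngp, the most abundant of them, did not pass (log2 fold changes 0.90, 0.80 and 0.91, limma adjusted p 0.0856 to 0.174). For each of these, all 4 libraries with Flt3-ITD lay above all 4 without, as for 12.1% of all tested genes. In Flt3-ITD against control, 5 of the 12 were higher (median log2 fold change 1.22), against 4 of the 9 monocyte genes (1.01) and 8.51% of all tested genes. In Smc3 del Flt3-ITD against control it was 2 of the 12 (0.84), against 6 of the 9 (1.35) and 5.41%. With Flt3-ITD on average, 1 of 10 granulocyte-monocyte progenitor genes was higher, near the share over all tested genes, and 0 were lower. Mpo (0.31), Elane (0.27) and Fcnb (0.20) did not pass. Of 7 B cell genes, 6 were lower, with sums of 6.09 to 9.53 FPKM in Smc3 del Flt3-ITD and 5.06 to 9.40 in Flt3-ITD, against 29.4 to 43.0 in Smc3 del/+ and 70.2 to 187 in control, and Cd79a was at 0 in Smc3 del Flt3-ITD replicate 2. Of 7 erythroid genes, 6 were lower, with sums of 162 to 501 FPKM in Smc3 del Flt3-ITD and 66.3 to 149 in Flt3-ITD, against 1336 to 1447 in Smc3 del/+ and 1407 to 1484 in control.

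Genes of resident macrophages went the other way from the monocyte genes. With Flt3-ITD 8 of 11 were lower and 0 higher (median log2 fold change -1.81), against 12.8% and 10.9% of all tested genes. The sums were 96.6 to 100.3 FPKM in Smc3 del Flt3-ITD and 86.8 to 97.1 in Flt3-ITD, against 140 to 169 in Smc3 del/+ and 146 to 171 in control. Hmox1, which breaks down haem, was at 8.21 and 4.53 FPKM in Smc3 del Flt3-ITD and 6.97 and 5.79 in Flt3-ITD, against 17.5 and 25.3 in Smc3 del/+ and 28.03 and 36.0 in control (-1.89 ± 0.213, limma adjusted p = 0.0015). C1qa, a complement gene of macrophages, was at 0 in Smc3 del Flt3-ITD replicate 2 and Flt3-ITD replicate 1. Vcam1 (-0.09) and Slc40a1 (-0.11), the most abundant of the list, did not pass.

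Dendritic cell genes moved with the Smc3 del Flt3-ITD libraries. Of 11 tested conventional dendritic cell genes, 5 were higher and 1 lower with Flt3-ITD on average, and 4 were higher and 0 lower in Smc3 del Flt3-ITD against Flt3-ITD. Their sums were 963 to 1684 FPKM in Smc3 del Flt3-ITD and 99.5 to 233 in Flt3-ITD, against 86.3 to 94.1 in Smc3 del/+ and 94.1 to 103 in control. Cd74, the chain that cathepsin S trims, was at 1036 and 542 FPKM in Smc3 del Flt3-ITD and 128 and 55.7 in Flt3-ITD, against 50.5 and 54.7 in Smc3 del/+ and 50.1 and 59.4 in control, and it rose by 3.13 in Smc3 del Flt3-ITD against Flt3-ITD (limma adjusted p = 0.0352). In that comparison H2-Aa rose by 3.22 (0.0331), and H2-Ab1 had a value of 2.79 (0.0709). Ctss, Mpeg1, Ccr2 and Ly86, for which both Smc3 del Flt3-ITD libraries were above both Flt3-ITD libraries, are also used by dendritic cells, and the part of such cells in their values was not tested. With Flt3-ITD on average, 1 of 4 plasmacytoid dendritic cell genes and 1 of 3 natural killer cell genes were lower, against 12.8% of all tested genes. In both lists 0 were higher, against 10.9%. Siglech, a marker of the plasmacytoid type, was at 0 in both Flt3-ITD libraries.

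**Figure D4:**
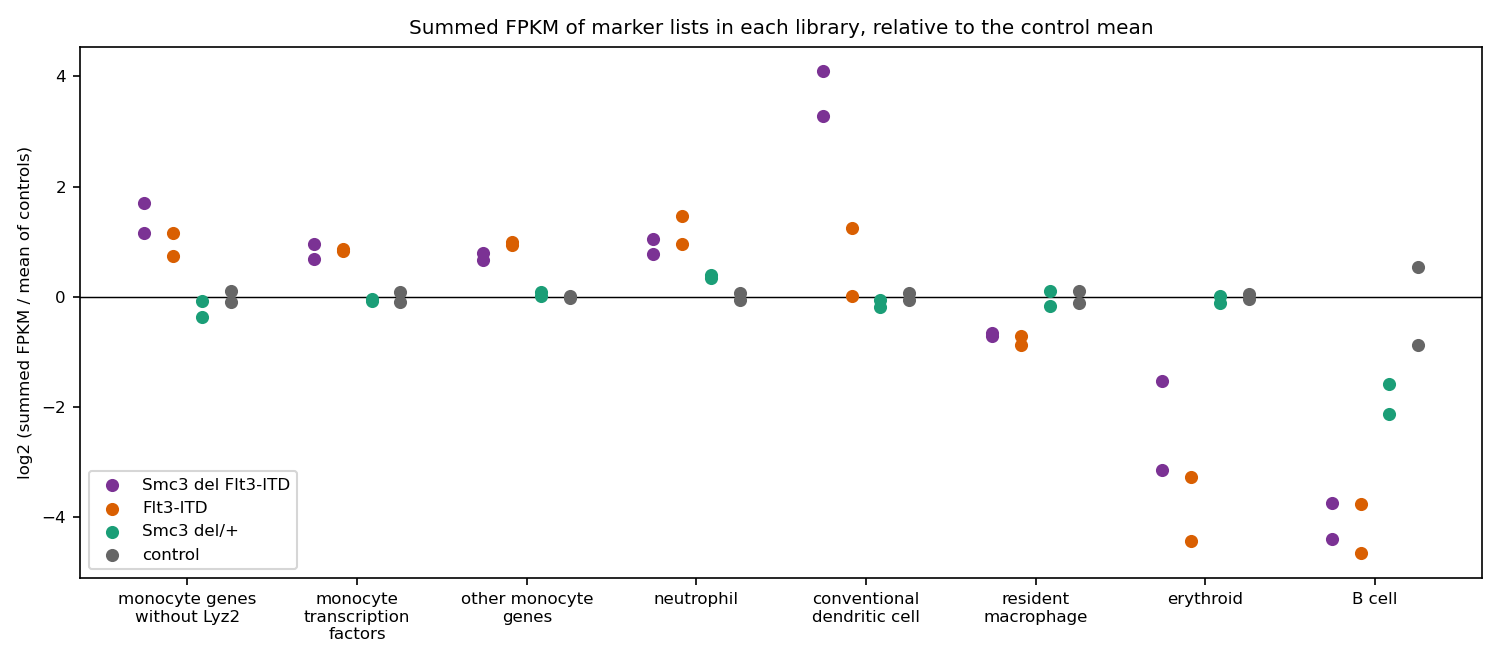
Summed FPKM of each gene list in each library, as log2 of its ratio to the mean of the 2 controls (vertical axis), coloured by genotype. The 9 monocyte genes without Lyz2, the monocyte factors, other monocyte genes and neutrophil genes lie above 0 in the 4 libraries with Flt3-ITD, resident macrophage, erythroid and B cell genes lie below 0, and conventional dendritic cell genes are highest in the 2 Smc3 del Flt3-ITD libraries.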

How the data were processed

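Poly(A) RNA of c-Kit-positive marrow cells was measured in 8 libraries (4 genotypes, 2 mice each), grouped by the labels. The authors deposited FPKM in 2 tables of 23385 rows, 92 of them spike-in RNAs; per the submitters' processing notes mm9, Cufflinks 2.0.0 and TopHat were used, without their roles; annotation and use of strand are not stated. The unscaled deposited FPKM served for the main results and the authors' normalized table as an alternative. The 10854 genes that averaged 1 FPKM or more entered limma 3.58.1 (R 4.3.3) on the log2(FPKM + 1) scale (variance trend, Benjamini-Hochberg, threshold 0.05), which understates changes of low genes. Single comparisons and the interaction came from 4 group means (4 residual degrees of freedom), averaged effects from an additive model (5). A 2 against 2 exact permutation test cannot go below p = 0.333. The fits were tested on simulated data. FPKM tables give no read depth, hence no counting intervals.

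The genes named are the 10 members, the listed genes with the smallest p (up to 6 for each of the lists of monocyte factors, other monocyte genes and relatives) or highest level (up to 3 for other lists), Spi1, Irf8, Csf1r, Ly6c2, Lyz1, Cd180, Smc3, Kit and Xist, and the 5 genes most like the members. Genes named outside this rule (Ms4a6b, C1qa, Siglech, Ccl2, Ccl12, Cx3cl1) were chosen after their values were seen, and some items that the rule covers are not reported here. Members and lists were chosen with earlier results of these data known. Sequences and neighbours are from RefSeq on GRCm38.p6, reading-frame identities from GENCODE M21. Alternatives were the normalized table, other filters, pseudocounts and scalings, the replicate block, fits of fewer groups and leaving out each library.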

Additional observations from a re-analysis of the deposited data

Results flagged for a closer look

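Ccr2 stood out because the Smc3 difference pointed in opposite ways in the 2 Flt3 genotypes: both Smc3 del Flt3-ITD libraries (72.4 and 42.1 FPKM) were above both Flt3-ITD libraries (28.3 and 33.1), and both Smc3 del/+ libraries (9.67 and 10.1) were below both controls (15.3 and 29.3), separations that 17.1% and 23.2% of all tested genes showed. The difference of the 2 effects was 1.86 ± 0.468 on the log2 scale (SE, limma adjusted p = 0.298), which did not pass, and it ranged from 1.41 to 2.31 with single libraries left out.

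Lyz2 stood out in the other direction, with both Smc3 del Flt3-ITD libraries (4315 and 2579 FPKM) below both Flt3-ITD libraries (4837 and 4348) and both Smc3 del/+ libraries (2188 and 2089) above both controls (1680 and 1590), as 16.8% and 24.2% of all tested genes did. Its difference of effects was -0.85 ± 0.381 (limma adjusted p = 0.551), which did not pass, and it ranged from -1.22 to -0.48 with single libraries left out. Both differences follow the Xist pattern of the libraries in full and cannot be told apart from it.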

How the results depend on the processing

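Of 1028 fold changes of single genes under alternatives, 892 kept their direction and side of the threshold, 81 were weaker, 22 became stronger and 33 changed sign, none of which had passed the test. For Flt3-ITD on average, all 9 values stayed positive throughout. The 8 genes passing became 5 with no filter on low values (5.98% of all tested genes higher) and 5 in the authors' normalized table (2.01%). In that table the median over all tested genes was -0.44, and 222 genes were higher and 4831 lower, against 1187 and 1394 here. Flt3-ITD against control (4) gave 2 in the normalized table (0.961% of all tested genes higher) and 7 without both Smc3 del Flt3-ITD libraries (19.2%). Smc3 del Flt3-ITD against control (6) gave 3 with no filter (3.02% of all tested genes higher) and 1 with only the compared groups (0.157%). It gave 2 in the normalized table, where 124 of 11027 tested genes were higher and 5857 lower. Leaving out single libraries gave 4 to 8, 0 to 7 and 0 to 9 in these comparisons, 0 to 1 higher and 0 to 1 lower for Smc3 del Flt3-ITD against Flt3-ITD, and 0 to 2 higher and 0 to 1 lower for the interaction. The share of all tested genes called higher ranged from 4.77% to 20.9%, 0.471% to 19.2%, 0.203% to 15.6%, 0.0185% to 14.4% and 0.0092% to 9.14% in the same order. The cause was not tested. Replicate numbers did not pair the samples (r of deviations -0.113 to 0.0229 between groups). With the replicate block, 7 genes passed for Flt3-ITD on average, where 9.8% of all tested genes were higher. In that fit 4 passed in Flt3-ITD against control (7.51%) and 4 in Smc3 del Flt3-ITD against control (4.15%).

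In the normalized table these signs changed: Ccr2 (-0.034) and Ctss (-0.27) in Flt3-ITD against control, Klf4 (-0.095) and Ly86 (-0.23) in Smc3 del/+ against control, Ms4a6c (-0.12) in Smc3 del Flt3-ITD against Flt3-ITD, F13a1 (-0.22) and Klf4 (-0.0036) for Smc3 on average, and Klf4 (0.18) for the interaction. Signs also changed with single libraries left out: for the interaction, Cx3cr1 (-0.39 to 0.62) and Klf4 (-0.78 to 0.55); for Smc3 on average, Ccr2 (-0.44 to 0.27), F13a1 (-0.11 to 0.12), Lyz2 (-0.14 to 0.20), Klf4 (-0.0089 to 0.52) and Cx3cr1 (-0.35 to 0.055). In Smc3 del/+ against control this held for Ctss (-0.70 to 0.0081) and Ly86 (-0.13 to 0.37), and in Smc3 del Flt3-ITD against Flt3-ITD for F13a1 (-0.016 to 0.55), Klf4 (-0.47 to 0.85), Ms4a6c (-0.20 to 0.33) and Cx3cr1 (-0.58 to 0.43). The read depth is unknown, which limits Fcgr1 most.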
